A study of Mus musculus with 2 samples.

Results

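Pleiotrophin (Ptn) and midkine (Mdk) are a pair of related secreted growth factors, and they were followed here together with 7 genes for proteins reported to bind them on the cell surface: Ptprz1, Ncl, Sdc2, Sdc3, Sdc4, Lrp1 and Alk. The 9 genes were taken by symbol from the 32285 genes of each count matrix, and each symbol named 1 gene. Their mRNA was measured by 10x single-cell RNA-seq in dissociated whole spinal cord of FVB mice at postnatal day 4. The SMA library held the severe spinal muscular atrophy genotype, with both mouse Smn copies inactivated and a human SMN2 transgene (mSmn-/-, hSMN22tg/0), and the Con library held littermates with 1 intact mouse copy and the same transgene (mSmn+/-, hSMN22tg/0), so the transgene was common to both groups. Each library was made from the pooled cords of 3 mice, and there was 1 library per group, so no difference below has a replicate check or a test.

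The deposited matrices held 26921 barcodes with 85872075 unique molecular identifiers (UMIs, each standing for 1 captured mRNA molecule) in SMA and 25419 barcodes with 97894084 UMIs in Con. The libraries shared 8163 cell barcodes, and of the 7131 Con barcodes with 5000 or more UMIs, 7058 were also listed in SMA. SMA barcodes that were also listed in Con were therefore left out, which removed 6509 of the 13296 SMA barcodes within the quality limits. The 6787 SMA cells and 8918 Con cells kept had a median of 6109 and 6229 UMIs. They fell into 28 clusters, 14 classes were named from marker genes, and 11 classes with 50 or more cells in each library were compared. Every marker of the 11 classes had UMIs in both libraries. Class names carry the ending "-like" because they were rebuilt here, and a difference from the class names of the study may come from that.

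The targeted gene Smn1 was at 48.1 CPM (UMIs of the gene for every 1e+06 UMIs of the cells) in SMA and 43.8 CPM in Con. The library preparation read mRNA near its 3' end, and the position of the altered part of the gene relative to those reads is not given in the sources used here, so this value may check nothing. The libraries are called by their labels throughout. In cells other than Erythroid-like cells the X-inactivation transcript Xist was at 1.64 CPM in SMA and 612 CPM in Con, so that the sex of the pooled animals and the genotype cannot be told apart in any comparison below.

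Both factors are small, basic, heparin-binding proteins of the developing nervous system. Pleiotrophin is best known there for binding the chondroitin sulphate chains of Ptprz1, a receptor tyrosine phosphatase of oligodendrocyte precursors and astrocytes, which lowers the activity of the phosphatase. Nucleolin, the syndecans, Lrp1 and the receptor tyrosine kinase Alk have been described as further binding partners of one or both factors.

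Ptn was the most abundant of the 9 mRNAs in both libraries and differed in the same direction, higher in SMA, in 10 of 11 classes, of which Fibroblast-like cells turned to -0.11 in the only cluster that both libraries shared. Mdk was lower in SMA in 8 of 11 classes. These include Erythroid-like cells, and Oligodendrocyte-like cells, whose larger cluster lay the other way. Of 22 clusters with 100 or more Mdk UMIs, 13 were lower and 9 higher in SMA. Of the receptors, Ptprz1 differed little in the classes where it was high, Ncl was slightly lower in 9 of 11 classes, and Sdc4 was higher in SMA in 8 of the 9 classes in which it had 100 or more UMIs. In the levels below, the UMIs of a gene in 1 class and 1 library were added up and set against all UMIs of the same cells, in CPM. Each UMI is a 3' tag that counts 1 molecule whatever the length of its mRNA, so levels of different genes were set side by side on this scale. Differences are log2 ratios of the SMA level to the Con level, positive where SMA was higher, with exact 95% intervals that cover counting error only and neither mouse-to-mouse nor preparation error.

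A member was said to be past the fold in a class when it had 100 or more UMIs there over both libraries and a log2 ratio of 0.5 or more in either direction. The share of all genes past the same fold was the background for that count. In OPC-like cells (oligodendrocyte precursors, 2109 SMA and 1842 Con cells) 1 of 9 members was past the fold against 5.47% of 11019 genes. In Astrocyte-like cells (1201 and 1496 cells) it was 1 of 8 against 7.82%, in COP-like cells (committed precursors, 216 and 381 cells) 1 of 7 against 7.96%, in Ependymal-like cells (628 and 291 cells) 1 of 8 against 7.7% and in Microglia-like cells (1073 and 866 cells) 1 of 8 against 7.92%. The background was higher in the remaining 6 classes: 3 of 7 members against 13.7% in Endothelial-like cells (330 and 447 cells), 3 of 8 against 16.9% in Mural-like cells (92 and 262 cells), 2 of 7 against 16.2% in Schwann-like cells (91 and 210 cells), 3 of 8 against 28.1% in Oligodendrocyte-like cells (245 and 542 cells), 4 of 8 against 41.7% in Fibroblast-like cells (63 and 601 cells) and 1 of 4 against 18.4% in Erythroid-like cells (382 and 912 cells). The count of Fibroblast-like cells was therefore near its background. In Oligodendrocyte-like cells the median gene was itself at 0.26, and centred on it 7 of 8 members were past the fold, with Ptn and Sdc4 higher in SMA and Mdk, Ptprz1, Sdc2, Sdc3 and Lrp1 lower.

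The ligand Ptn (ENSMUSG00000029838) lies on the minus strand of chromosome 6 (chr6:36714929-36810220, GRCm38), and the ligand Mdk (ENSMUSG00000027239) on the minus strand of chromosome 2 (chr2:91929805-91932297). Among the receptors, Ptprz1 (ENSMUSG00000068748) lies on the plus strand of chromosome 6 (chr6:22875502-23052916), Ncl (ENSMUSG00000026234) on the minus strand of chromosome 1 (chr1:86344719-86359400) and Lrp1 (ENSMUSG00000040249) on the minus strand of chromosome 10 (chr10:127538161-127621148). The syndecan genes lie on the plus strand of chromosome 15 (Sdc2, ENSMUSG00000022261, chr15:32920723-33034935), the plus strand of chromosome 4 (Sdc3, ENSMUSG00000025743, chr4:130792537-130826319) and the minus strand of chromosome 2 (Sdc4, ENSMUSG00000017009, chr2:164424247-164443887). Alk (ENSMUSG00000055471) lies on the minus strand of chromosome 17 (chr17:71868972-72604627). All 9 are annotated as protein-coding.

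The promoters of the main ligand, its phosphatase receptor and the broadly expressed nucleolin are shown because Ptn and Ptprz1 were expressed unevenly over the classes and Ncl evenly. Each is the 250 bases before the RefSeq transcript start on GRCm38.p6, written 5' to 3' on the strand of the gene, with every CpG (the letters CG, which read the same on both strands) in capitals. The stretches are chr6:36810180-36810429 on the minus strand for Ptn, chr6:22875252-22875501 on the plus strand for Ptprz1 and chr1:86359456-86359705 on the minus strand for Ncl.
Ptn: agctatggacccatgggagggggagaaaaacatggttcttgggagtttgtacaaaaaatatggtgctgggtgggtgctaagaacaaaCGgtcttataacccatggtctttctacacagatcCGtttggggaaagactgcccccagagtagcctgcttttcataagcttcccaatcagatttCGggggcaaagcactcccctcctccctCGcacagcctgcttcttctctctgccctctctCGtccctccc
Ptprz1: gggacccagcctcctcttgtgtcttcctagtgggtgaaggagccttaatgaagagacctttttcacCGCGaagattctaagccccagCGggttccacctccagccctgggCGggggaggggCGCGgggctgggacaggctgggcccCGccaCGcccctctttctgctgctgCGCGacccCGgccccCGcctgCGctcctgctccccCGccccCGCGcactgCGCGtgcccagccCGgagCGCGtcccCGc
Ncl: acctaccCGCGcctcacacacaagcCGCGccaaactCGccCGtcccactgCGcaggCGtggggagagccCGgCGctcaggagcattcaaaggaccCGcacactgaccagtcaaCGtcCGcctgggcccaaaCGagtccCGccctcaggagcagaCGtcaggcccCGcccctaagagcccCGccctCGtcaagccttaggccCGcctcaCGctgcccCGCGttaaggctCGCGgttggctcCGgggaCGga

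The Ptn stretch held 5 CpG at 52% GC, and 44.4% of 32851 mouse promoters of the same length held fewer. The Ptprz1 stretch held 22 CpG at 71.6% GC (85.2% of promoters held fewer) and the Ncl stretch 27 CpG at 69.6% GC (91.4% held fewer). The 4 other members with a matching RefSeq promoter, Sdc3, Sdc4, Lrp1 and Alk, held 32, 19, 13 and 23 CpG, so that Ptn alone lay below the median promoter's count of 6. Over the 10 classes other than Erythroid-like cells, the highest level of Ptn, as the mean of both libraries, was 17.8 times its lowest, that of Ptprz1 19.5 times and that of Ncl 3.09 times. A count of CpG is a description of these stretches. Mdk and Sdc2 had no match and are not shown.

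Ptn, the principal ligand, had its highest levels in Fibroblast-like cells (11284 CPM in SMA, 6333 in Con), Astrocyte-like cells (7312 and 6299.8 CPM) and OPC-like cells (6959 and 5598 CPM), in the same order in both libraries. In Con the counting intervals of Fibroblast-like and Astrocyte-like cells overlapped (6239.8 to 6427 and 6251 to 6349 CPM), and those of Astrocyte-like and OPC-like cells were apart in both libraries. Oligodendrocyte-like cells followed at 5823 and 3379.7 CPM, Mural-like cells at 4266 and 2419.7 CPM and COP-like cells at 3751 and 2419 CPM, alike in Con. Schwann-like cells were at 1338 CPM in SMA and 681 CPM in Con, Endothelial-like cells at 898 and 833 CPM, Ependymal-like cells at 852 and 678 CPM and Microglia-like cells at 596 and 393 CPM. The lowest level was that of Erythroid-like cells, at 201 and 203 CPM.

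**Figure D1:**
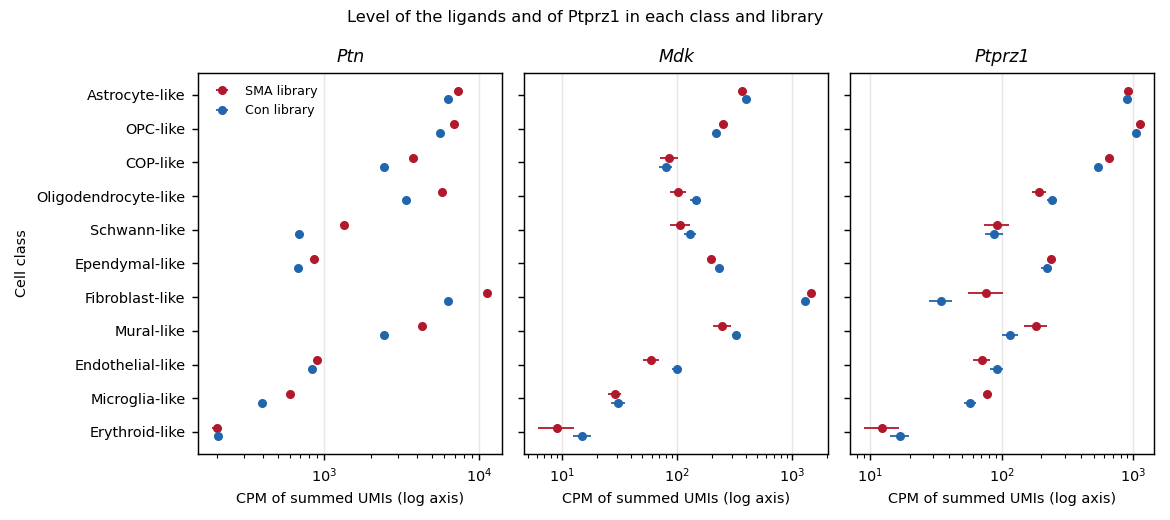
Levels of Ptn, Mdk and Ptprz1 in CPM of summed UMIs (x axis, log scale) in the 11 classes (y axis), with 1 point per library and exact 95% Poisson intervals, which cover counting error only. Ptn and Mdk were highest in Fibroblast-like cells in both libraries, Ptprz1 was highest in OPC-like cells, and all 3 were lowest in Erythroid-like cells.

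Erythroid-like cells serve as a gauge of free RNA, since red cell precursors should hold neither ligand. Thinned to 1000 UMIs per cell, 19.2% of 381 SMA and 18.8% of 906 Con Erythroid-like cells held a Ptn UMI, at median depths of 9607 and 9559 UMIs and with haemoglobin mRNAs at 896238 and 896203 CPM. The share was 99.0% and 98.3% in OPC-like cells and 86.9% and 86.0% in Astrocyte-like cells. In Microglia-like cells it was 24.3% (21.8 to 27.0) in SMA and 21.1% (18.5 to 24.0) in Con, which overlapped the Erythroid-like shares (15.3 to 23.5 and 16.3 to 21.5), although the level of 596 and 393 CPM lay above the Erythroid-like 201 and 203 CPM. Thinned to 2000 UMIs, the shares were 37.8% and 35.2% of Microglia-like and 28.6% and 27.5% of Erythroid-like cells. Haemoglobin mRNAs took up most UMIs of Erythroid-like cells, so their CPM and thinned shares understate other RNA per cell, here and for every gene below. In UMIs, 382 and 912 Erythroid-like cells held 714 and 1684 of Ptn. The large Microglia-like cluster (835 and 736 cells) held 1517 and 1179. Whether Microglia-like cells themselves express Ptn was not tested. Without thinning, 63.4% and 65.5% of Erythroid-like, 99.7% and 99.6% of OPC-like, 95.8% and 98.3% of Astrocyte-like and 66.5% and 68.6% of Microglia-like cells held a Ptn UMI. Cells left out of the thinning for lack of depth numbered 1 and 6 Erythroid-like and 7 and 6 OPC-like cells, and 0 in the other 2 classes.

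OPC-like and Astrocyte-like cells held most Ptn UMIs. OPC-like cells held 47.9% (binomial interval 47.6 to 48.1) of 180499 UMIs in SMA and 35.4% (35.2 to 35.6) of 175785 UMIs in Con. Astrocyte-like cells held 31.2% and 35.9% (35.7 to 36.1 in Con, above the OPC-like share there), and Fibroblast-like cells 3.68% and 10.1%. The cells themselves were divided differently: OPC-like cells were 31.1% of SMA and 20.7% of Con cells, Astrocyte-like cells 17.7% and 16.8%, and Fibroblast-like cells 0.928% and 6.74%. Differing numbers of cells of a type and differing RNA per cell both enter such shares, and with 1 dissociation per group they cannot be told apart.

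Over all kept cells Ptn was at 3956 CPM in SMA and 2960 CPM in Con, a log2 ratio of 0.42 (0.41 to 0.43). In Astrocyte-like cells the ratio was 0.21 (0.20 to 0.23) and in OPC-like cells 0.31 (0.30 to 0.33), both under the fold of 0.5. The 6 classes past the fold were COP-like (0.63, 0.58 to 0.68), Oligodendrocyte-like (0.78, 0.74 to 0.83, but 0.31 without the low-depth cluster described below), Schwann-like (0.97, 0.86 to 1.09), Fibroblast-like (0.83, 0.79 to 0.87, but -0.11 in the cluster of both libraries), Mural-like (0.82, 0.75 to 0.89) and Microglia-like cells (0.60, 0.53 to 0.67, but 0.43 and under the fold with shared barcodes kept). Ependymal-like (0.33) and Endothelial-like cells (0.11) were higher in SMA by less, and Erythroid-like cells were level at -0.01 (-0.14 to 0.11). Markers of astrocytes, summed over 10 genes that all had UMIs in both libraries, moved with Ptn in some of these classes: their log2 ratio was 1.30 in Fibroblast-like, 0.59 in Schwann-like, 0.47 in Mural-like, 0.21 in OPC-like and 0.14 in Microglia-like cells, and 0.12 in COP-like and 0.00 in Oligodendrocyte-like cells. Of the 10 markers, 10 were higher in SMA in Fibroblast-like, 7 in Schwann-like, 7 in Mural-like, 4 in Microglia-like and 4 in COP-like cells. Summed over 8 genes, markers of OPC lay at -0.30 in Schwann-like, -0.06 in Mural-like, -0.01 in Fibroblast-like and -0.02 in Microglia-like cells. They lay at -0.08 in COP-like, -0.14 in OPC-like and 0.12 in Oligodendrocyte-like cells. The part of either marker list in the Ptn ratios was not tested.

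**Figure D2:**
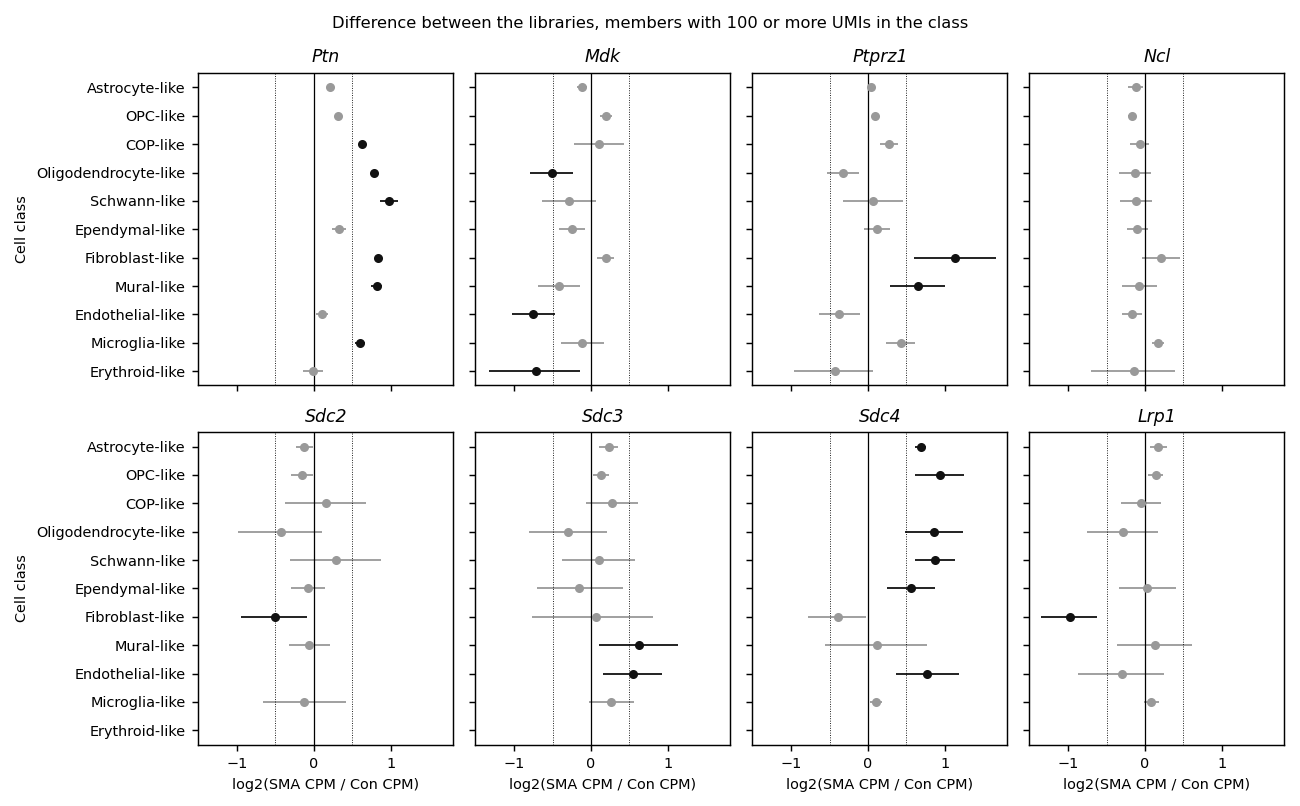
Log2 ratio of the SMA level to the Con level (x axis) for members with 100 or more UMIs in a class (y axis), with exact 95% intervals for counting error only; each panel is 1 gene, dotted lines mark a log2 ratio of 0.5 in either direction and black points lie past it. Ptn was above 0 in 10 of 11 classes and Sdc4 in 8 of 9, whereas Mdk was below 0 in 8 of 11 and Ncl in 9 of 11.

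Within classes the Ptn difference varied from cluster to cluster. The 27 clusters with cells of both libraries all held 100 or more Ptn UMIs, and 22 of them were higher in SMA, with a median log2 ratio of 0.32. In the main astrocyte cluster, led by Gbx2 and Slc7a10, Ptn was at 8301 and 8165 CPM, a log2 ratio of 0.02 (0.00 to 0.04). In the cluster led by Cidea and the intermediate filament gene Gfap it was at 4846 CPM in SMA and 3288 CPM in Con (0.56), and in the cycling astrocyte cluster, with Esco2 and Pbk, at 6923 and 5622 CPM (0.30). The Gbx2-led cluster, where Ptn was highest, was 69.9% of the class in SMA and 64.8% in Con, and the Cidea-led cluster, where it was lowest, 17.8% and 22.6%, so that the ratio of the class also holds this difference in make-up.

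OPC-like cells came from 6 clusters. The main cluster, led by Kctd16, was at 7726 and 6764 CPM (log2 ratio 0.19), the S-phase cluster with Cdc6 at 7262 and 5644 CPM (0.36), the mitotic cluster with Cenpf at 5949 and 4389 CPM (0.44) and the cluster led by the Notch ligand Dll1 at 5527 and 4268 CPM (0.37). The histone-rich cluster with Hist1h1b was at 6642 and 5335 CPM (0.32) and the cluster led by Kcnk10 at 6748 and 5657 CPM (0.25). All 6 were higher in SMA.

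In Microglia-like cells the large cluster led by Il1a held Ptn at 266 CPM in SMA and 227 CPM in Con (0.23). The smaller cluster with Ccl3 and Mki67 was at 1445 and 1051 CPM (0.46) and made up 22.2% of the class in SMA and 15.01% in Con. The summed markers of OPC were also higher in the smaller cluster, at 447 and 493 CPM against 73.9 and 102 CPM in the large one, and its haemoglobin level was 66360 and 114511 CPM. Without it, the log2 ratio of Ptn in the class was 0.23, under the fold, against a background of 6.78%.

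In Oligodendrocyte-like cells most barcodes (186 SMA and 500 Con cells) were in a cluster of low depth, with a median of 2694 and 1651 UMIs and haemoglobin at 141125 and 297792 CPM. There Ptn was at 5870 CPM in SMA and 2956 CPM in Con (0.99), and the summed astrocyte markers were at 4643 and 2763 CPM. In the deep cluster led by Mog and holding Opalin (59 and 42 cells, median 14643 and 13033 UMIs) Ptn was at 5786 and 4671 CPM, a log2 ratio of 0.31 (0.24 to 0.38) against a background of 10.2% past the fold. The median of all genes tested in the class was 0.26 and not near 0, unlike in the other 10 classes, where it lay between -0.07 and 0.05.

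Fibroblast-like cells came from 2 clusters, of which 1 held all SMA cells. That cluster, led by the transporter gene Slc6a13, held 63 SMA and 169 Con cells with Ptn at 11284 and 12186 CPM, a log2 ratio of -0.11 (-0.15 to -0.07). A second cluster of 432 cells, led by Mfap5, Timp1 and Pi16, came from Con alone and held Ptn at 120.1 CPM. The ratio of 0.83 for the class therefore had the opposite sign within the cluster that both libraries shared.

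Mdk, the second ligand, was at 188 CPM in SMA and 215 CPM in Con over all kept cells, a log2 ratio of -0.19 (-0.23 to -0.15). Fibroblast-like cells were highest in both libraries (1471 and 1287 CPM), followed by Astrocyte-like cells (369 and 399.96 CPM). Mural-like (247 and 329 CPM), OPC-like (250.3 and 219 CPM) and Ependymal-like cells (196 and 233 CPM) came next, and their order was not the same in both libraries. Oligodendrocyte-like cells were at 103 and 146 CPM, Schwann-like cells at 107 and 130.1 CPM, COP-like cells at 85.8 and 79.5 CPM, Endothelial-like cells at 59.9 and 101 CPM, Microglia-like cells at 28.6 and 30.9 CPM and Erythroid-like cells at 9.02 and 14.8 CPM. Fibroblast-like and Astrocyte-like cells thus led for both ligands, with Mdk far lower than Ptn, and the order of the other classes differed between the ligands.

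Unlike Ptn, Mdk differed in opposite directions among the large classes. In OPC-like cells it was higher in SMA, at 0.20 (0.12 to 0.27) on the log2 scale from 3107 and 2429 UMIs. In Astrocyte-like cells it was lower, with 2838 and 4005 UMIs and -0.12 (-0.19 to -0.05). Past the fold were Endothelial-like cells at -0.75 (-1.03 to -0.47, 149 and 368 UMIs), Oligodendrocyte-like cells at -0.51 (-0.79 to -0.23, 157 and 319 UMIs) and Erythroid-like cells at -0.72 (-1.33 to -0.15, 32 and 123 UMIs). The Erythroid-like value describes the class taken as the gauge of free RNA, and it is 1 of the 8 classes counted as lower. In the shared fibroblast cluster the ratio was -0.72 (1471 and 2432 CPM), against 0.19 in the whole class. In Oligodendrocyte-like cells 150 of the 157 SMA and 308 of the 319 Con Mdk UMIs were in the low-depth cluster, where the ratio was 0.25 (-0.04 to 0.54, 222.8 and 187.5 CPM) and so of the opposite sign to the class. The deep cluster, with 7 and 11 Mdk UMIs, was 24.1% of the class in SMA and 7.75% in Con. With shared barcodes kept, the log2 ratio of Mdk in Oligodendrocyte-like cells was 0.0847. The share of thinned cells with a Mdk UMI was 21.6% and 19.1% in OPC-like, 29.1% and 31.2% in Astrocyte-like and 0.787% and 1.55% in Erythroid-like cells (65.4% and 60.3%, 81.4% and 84.9%, and 7.59% and 10.3% unthinned).

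Ptprz1, the phosphatase receptor, reached 1115 and 1047 CPM in OPC-like cells, 917 and 891 CPM in Astrocyte-like cells and 655 and 541 CPM in COP-like cells, and these 3 classes kept this order in both libraries with no overlap between neighbours. Ependymal-like cells followed at 238 and 219.7 CPM, Oligodendrocyte-like cells at 192 and 239.7 CPM and Mural-like cells at 182 and 116 CPM. The remaining levels were 92.0 and 87.6 CPM in Schwann-like, 77.7 and 57.8 CPM in Microglia-like, 70.8 and 91.6 CPM in Endothelial-like, 76.4 and 34.7 CPM in Fibroblast-like and 12.4 and 16.8 CPM in Erythroid-like cells. Thinned, 62.5% and 63.1% of OPC-like and 58.0% and 55.8% of Astrocyte-like cells held a Ptprz1 UMI, against 1.05% and 2.10% of Erythroid-like cells (unthinned 96.2% and 95.1%, 96.3% and 96.1%, and 9.95% and 12.3%).

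The difference of Ptprz1 between libraries was small where the receptor was high. The log2 ratio was 0.09 (0.06 to 0.13) in OPC-like cells and 0.04 (-0.0034 to 0.09) in Astrocyte-like cells, an interval that reaches 0. In COP-like cells it was 0.28 (0.16 to 0.39). Past the fold were Fibroblast-like cells at 1.14 (0.60 to 1.66, on 45 and 97 UMIs) and Mural-like cells at 0.65 (0.29 to 1.00, on 101 and 208 UMIs), and Endothelial-like cells lay the other way at -0.37 (-0.64 to -0.10). In the fibroblast cluster of both libraries the ratio was 0.34 (-0.21 to 0.87). The summed astrocyte markers lay at 1.30 in Fibroblast-like and 0.47 in Mural-like cells, and their part in the Ptprz1 ratios was not tested. Within the astrocytes, the Gbx2-led cluster was at 1020 and 1110 CPM (-0.12) and the Cidea-led cluster at 614 and 513 CPM (0.26), so the class value averaged clusters of opposite sign.

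Detection of ligand and receptor in the same cell was counted next. With each cell thinned to 1000 UMIs, 62.1% of SMA and 62.4% of Con OPC-like cells held both a Ptn and a Ptprz1 UMI, as did 50.5% (47.6 to 53.3) and 48.9% (46.4 to 51.5) of Astrocyte-like cells. The astrocyte intervals overlapped, and the share in Erythroid-like cells was 0.787% and 0.883%. In OPC-like cells Ptn was found in 99.4% and 99.0% of cells with and 98.5% and 97.2% of cells without a Ptprz1 UMI, so that the joint share there was set by the Ptprz1 share.

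Along the oligodendrocyte lineage, 4 clusters could be ordered by their marker genes: the main OPC cluster, the COP cluster with Gpr17, an unnamed cluster led by Enpp6 (114 and 399 cells), which marks newly formed oligodendrocytes, and the deep cluster with Opalin. Ptprz1 was at 1226 and 1218 CPM, 655 and 541 CPM, 200.1 and 230.0 CPM and 17.6 and 35.3 CPM in that order, lower at each step in both libraries. Mdk followed the same course, at 238 and 219 CPM, 85.8 and 79.5 CPM, 16.4 and 19.8 CPM and 8.21 and 20.4 CPM, with no further drop at the last step in Con. Ptn did not: it was at 7726 and 6764 CPM, 3751 and 2419 CPM and 957 and 684 CPM in the first 3 clusters and at 5786 and 4671 CPM in the last. The order is by marker genes and not by time.

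**Figure D3:**
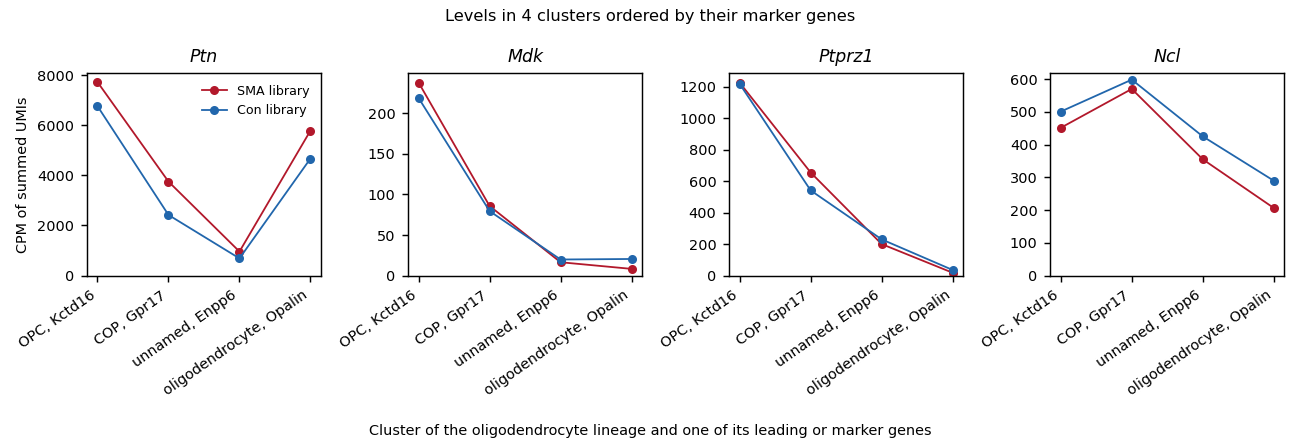
Levels of Ptn, Mdk, Ptprz1 and Ncl (y axis, CPM of summed UMIs) in 4 clusters of the oligodendrocyte lineage ordered by their marker genes (x axis), 1 line per library. Ptprz1 was lower at each step, from 1226 to 17.6 CPM in SMA and from 1218 to 35.3 CPM in Con, while Ptn was lowest in the Enpp6 cluster and higher again in the Opalin cluster.

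Ncl, the nucleolar protein nucleolin that also reaches the cell surface, was the most evenly expressed of the receptors. Its levels were 569.9 and 598 CPM in COP-like cells, 487 and 547 CPM in OPC-like cells, 416 and 369.5 CPM in Microglia-like cells and 373 and 393 CPM in Mural-like cells. Ependymal-like (325 and 348 CPM), Endothelial-like (314 and 352 CPM), Schwann-like (294 and 319 CPM) and Fibroblast-like cells (292 and 252 CPM) were close to each other. Oligodendrocyte-like (206 and 225 CPM) and Astrocyte-like cells (181 and 197 CPM) were the lowest outside Erythroid-like cells (11.6 and 12.8 CPM).

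No class was past the fold for Ncl. Over all kept cells it was at 340.4 CPM in SMA and 323 CPM in Con, a log2 ratio of 0.08 (0.05 to 0.11), the opposite sign to most classes. In 9 of 11 classes Ncl was lower in SMA, with log2 ratios of -0.17 (-0.22 to -0.11) in OPC-like, -0.17 (-0.30 to -0.04) in Endothelial-like and -0.12 (-0.22 to -0.02) in Astrocyte-like cells. Microglia-like cells were the only class whose interval lay above 0, at 0.17 (0.09 to 0.25). Of 12 genes of cell division, 11 were past the fold and higher in SMA in Microglia-like cells (7.92% of all genes), as were 9 of 9 tested in Schwann-like cells (16.2%), where Ncl lay at -0.12 (-0.33 to 0.10). In Endothelial-like cells 6 of 8 (13.7%) and in Fibroblast-like cells 4 of 7 (41.7%) were past it and lower. Of 26 clusters with 100 or more Ncl UMIs, 18 were lower in SMA.

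The syndecans are transmembrane proteoglycans whose heparan sulphate chains bind both factors, and the 3 members were found in different classes. Sdc2 was highest in Mural-like cells (278 and 289 CPM), then in Astrocyte-like (146 and 159 CPM), Ependymal-like (120.3 and 127 CPM), Fibroblast-like (89.9 and 128 CPM) and OPC-like cells (61.9 and 68.8 CPM). It was lower in SMA in 7 of 9 classes, past the fold in Fibroblast-like cells alone (-0.51, -0.95 to -0.09, on 53 and 358 UMIs), where it was -0.48 (-0.95 to -0.03) in the cluster of both libraries. Sdc3, the syndecan of neural cells, was highest in OPC-like (143 and 129.99 CPM) and Astrocyte-like cells (127 and 108 CPM). Its log2 ratio was 0.13 (0.03 to 0.24) in OPC-like and 0.23 (0.11 to 0.36) in Astrocyte-like cells, and past the fold in Mural-like (0.63, 0.11 to 1.14) and Endothelial-like cells (0.54, 0.16 to 0.93), where it had 49 and 102 and 117 and 118 UMIs. Of 10 classes tested, 8 were higher in SMA. Summed astrocyte markers lay at 0.47 in Mural-like and -0.01 in Endothelial-like cells, and their part in the Sdc3 ratios was not tested.

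Sdc4, the syndecan of focal adhesions, was the receptor with the most differences. Its level in Astrocyte-like cells was 428 CPM in SMA (3299 UMIs) and 266 CPM in Con (2665 UMIs), a log2 ratio of 0.69 (0.61 to 0.76). Microglia-like cells had a similar level in both libraries, 382 and 357 CPM, with a ratio of 0.10 (0.02 to 0.18). Sdc4 was past the fold in 6 classes: besides astrocytes, Schwann-like (257 and 141 CPM, 0.87), Oligodendrocyte-like (87.2 and 48.1 CPM, 0.86), Endothelial-like (43.9 and 25.7 CPM, 0.77), Ependymal-like (88.9 and 60.3 CPM, 0.56) and OPC-like cells (20.8 and 10.9 CPM, 0.93). Fibroblast-like cells lay the other way (117 and 154 CPM, -0.40), Mural-like cells were at 48.7 and 44.7 CPM (0.12), and COP-like cells held 11 and 19 UMIs, too few for a comparison. Summed astrocyte markers lay at 0.59 in Schwann-like, 0.15 in Ependymal-like and -0.01 in Endothelial-like cells, and their part in these Sdc4 ratios was not tested.

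The Sdc4 difference was found in each astrocyte cluster. The levels were 477 and 301 CPM in the Gbx2-led cluster (0.66, 0.57 to 0.76), 336 and 212 CPM in the Cidea-led cluster (0.67, 0.50 to 0.83) and 363 and 248.6 CPM in the cycling cluster (0.55, 0.34 to 0.76). Thinned to 1000 UMIs, 34.1% (31.4 to 36.8) of SMA and 22.2% (20.1 to 24.4) of Con Astrocyte-like cells held a Sdc4 UMI, against 0.525% and 0.331% of Erythroid-like cells. Without thinning the shares were 87.4% and 75.0%, and 4.19% and 2.74%. Over all clusters with 100 or more Sdc4 UMIs, 13 of 14 were higher in SMA and the median log2 ratio was 0.67.

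**Figure D4:**
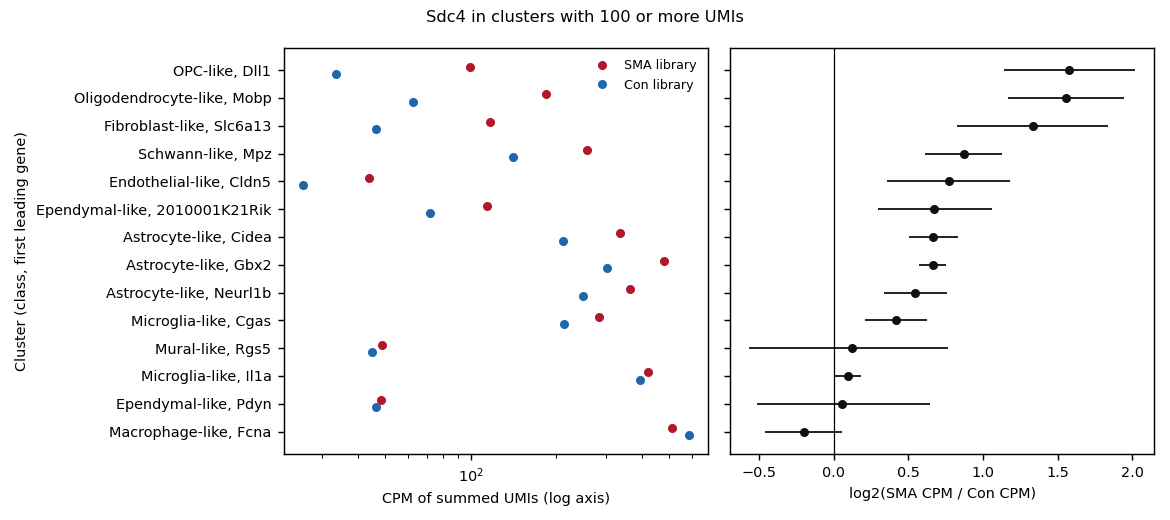
Sdc4 in the clusters with 100 or more Sdc4 UMIs (y axis, class and first leading gene): level in CPM of summed UMIs per library (left, log axis) and log2 ratio of SMA to Con with its exact 95% interval for counting error only (right). The ratio was above 0 in 13 of 14 clusters, and the 3 astrocyte clusters lay between 0.55 and 0.67.

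The OPC-like and Oligodendrocyte-like values of Sdc4 each came largely from 1 cluster. In the low-depth oligodendrocyte cluster Sdc4 was at 184 and 62.7 CPM (124 and 103 UMIs, log2 ratio 1.56), beside summed astrocyte markers of 4643 and 2763 CPM, and the deep cluster held 9 and 2 UMIs. In the Dll1-led OPC cluster Sdc4 was at 99.4 and 33.4 CPM (158 and 63 UMIs, log2 ratio 1.57), beside summed astrocyte markers of 2554 and 1690 CPM and haemoglobin at 101797 and 142095 CPM. The part of these markers in the Sdc4 ratios was not tested. Without that cluster the OPC-like level was 9.24 CPM in SMA and 6.28 CPM in Con, a ratio of 0.56 (0.08 to 1.05) against a background of 5.54%. In the fibroblast cluster of both libraries Sdc4 was at 117 and 46.5 CPM (1.33, 0.83 to 1.84), the opposite direction to the class, since the Con-only cluster held it at 268 CPM.

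Lrp1, a large endocytic receptor, was highest in Microglia-like cells (250.2 CPM in SMA and 237 CPM in Con), and in Con it was as high in Fibroblast-like cells (120.5 and 238 CPM). Astrocyte-like (161 and 143 CPM), OPC-like (152 and 139 CPM) and COP-like cells (124 and 128 CPM) followed. The log2 ratio was 0.17 (0.06 to 0.28) in Astrocyte-like, 0.14 (0.04 to 0.24) in OPC-like and 0.08 (-0.02 to 0.18) in Microglia-like cells, and it was past the fold in Fibroblast-like cells alone (-0.98, -1.36 to -0.63). In the fibroblast cluster of both libraries it was -0.47 (-0.88 to -0.09, 120.5 and 167 CPM), under the fold. Lrp1 was higher in SMA in 5 of 9 classes.

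Alk, the receptor tyrosine kinase, was close to the limit of detection, with 102 UMIs in SMA and 86 in Con in all. OPC-like cells held 72.5% and 72.1% of them, at 5.96 and 5.58 CPM, and the log2 ratio of 0.10 (-0.41 to 0.61) covers differences in both directions. Every other compared class held 8 UMIs or fewer in each library. Endothelial-like cells held 0 in both libraries, with exact Poisson upper bounds of 1.48 and 1.01 CPM.

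To set ligand against receptor across classes, the CPM of a ligand in a sending class was multiplied by the CPM of a receptor in a receiving class and divided by 1e+06, for 12 pairs and all classes but Erythroid-like cells. A product is arithmetic on mRNA levels and measures no binding, and products that share a class share a factor, so their counts are not independent. Of 970 products, 652 were higher in SMA and 318 lower, and 362 and 103 were past 0.5 on the log2 scale. The 103 lower ones became 39 with shared barcodes kept and 62 with an upper limit of 6000 genes per cell, and the 362 higher ones are not given under other settings. With Fibroblast-like senders, 49 of 49 Ptn products and 40 of 48 Mdk products were higher in SMA. These include the Con-only cluster, and in the fibroblast cluster of both libraries both ligands were lower in SMA. The counts per pair below hold the same products. For Ptn with Ptprz1, 93 of 100 products were higher in SMA, with a median log2 ratio of 0.74. For Ptn with Sdc4, 86 of 90 were higher with a median of 1.09. For Mdk with Ptprz1, 46 of 100 were higher and 54 lower, and for Mdk with Ncl 71 of 100, with Sdc2 66 of 90 and with Lrp1 66 of 90 were lower. Mdk with Sdc4 lay the other way, with 66 of 90 products higher and a median of 0.36.

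**Figure D5:**
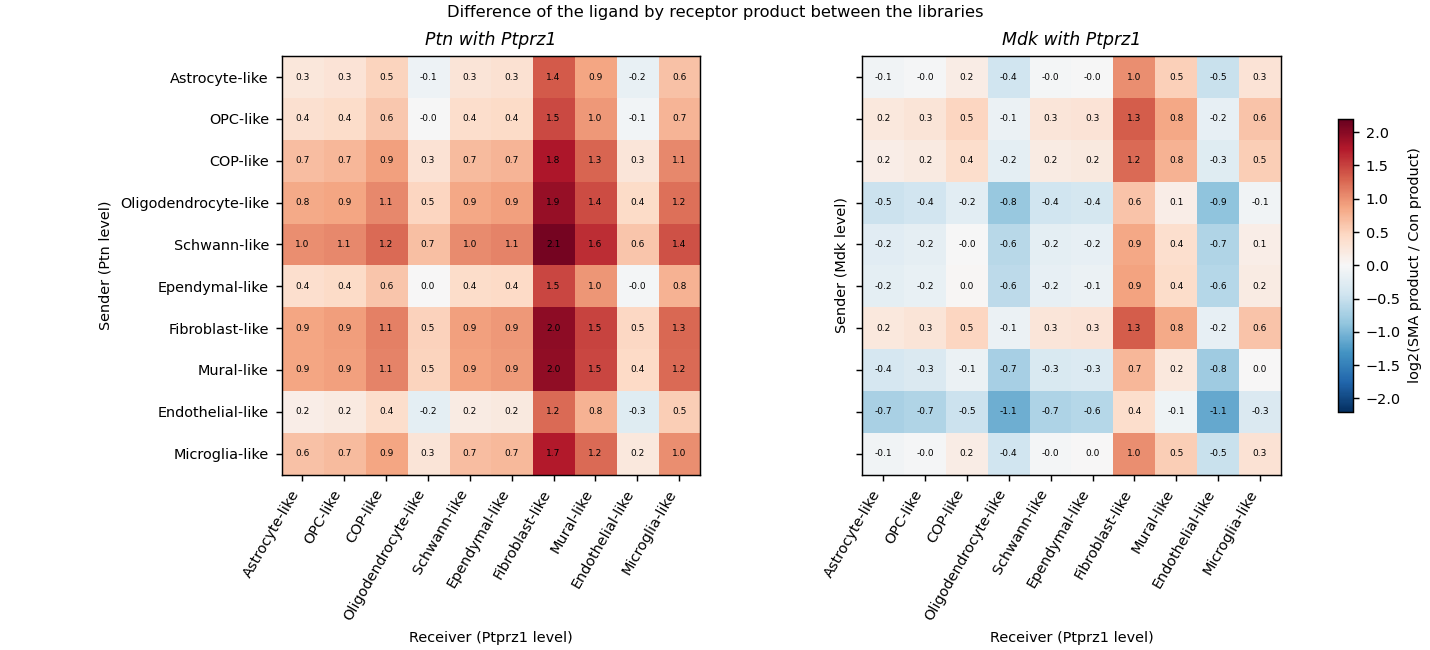
Log2 ratio of the SMA product to the Con product of ligand level and receptor level, for Ptn with Ptprz1 (left) and Mdk with Ptprz1 (right), with the sending class in rows and the receiving class in columns; colour and number give the ratio. With Ptn, 93 of 100 squares were above 0, whereas with Mdk 46 were above and 54 below. The rows of Fibroblast-like senders include the Con-only cluster, without which both ligands were lower in SMA. The highest column in both panels was that of Fibroblast-like receivers, whose Ptprz1 ratio of 1.14 was 0.34 in the cluster that both libraries shared.

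The top product of Ptn with Ptprz1 was from Fibroblast-like to OPC-like cells in both libraries (12.6 in SMA and 6.63 in Con). Its sender level in Con included the Con-only cluster at 120.1 CPM of Ptn, and in the shared fibroblast cluster Ptn was at 11284 and 12186 CPM. Among the glial pairs, Astrocyte-like to OPC-like cells gave 8.15 and 6.60 (log2 ratio 0.31), OPC-like to OPC-like cells 7.76 and 5.86 (0.40) and Astrocyte-like to Astrocyte-like cells 6.71 and 5.61 (0.26). For Mdk with Ptprz1, the same pairs gave 0.411 and 0.419 (-0.03), 0.279 and 0.229 (0.29) and 0.338 and 0.356 (-0.08). By sender, Mdk products from OPC-like cells were higher in SMA in 40 of 48 cases and those from Endothelial-like cells lower in 43 of 48.

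The members were also compared between cycling and other cells within each library. Of the OPC-like cells thinned to 1000 UMIs, 20.1% in SMA and 20.2% in Con held 3 or more UMIs of 12 cell-division genes. In these cells Ptn differed from the other OPC-like cells by a log2 ratio of -0.19 in SMA and -0.27 in Con, Ptprz1 by -0.20 and -0.17 and Ncl by 0.17 and 0.27. Mdk differed by 0.17 (0.05 to 0.29) in SMA and 0.11 (-0.03 to 0.24) in Con, an interval that reaches 0. Sdc4 differed most, by -1.39 (-2.01 to -0.82) in SMA and -0.81 (-1.62 to -0.08) in Con, on 28 and 18 UMIs in cycling cells. Among the Astrocyte-like cells, 8.16% in each library were above the limit. Their Ptn ratio to the other astrocytes was -0.02 (-0.06 to 0.02) in SMA and -0.62 (-0.67 to -0.58) in Con, and their Ncl ratio 0.73 and 0.35. With a limit of 2 UMIs the Ptn ratios were 0.02 and -0.29, and with a limit of 5 they were 0.0046 and -0.76.

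Across the 22 class-by-library levels of 11 classes, the members resembled each other to different degrees on the log2 scale. Pearson's r was 0.87 for Mdk and Sdc2, 0.83 for Ptprz1 and Sdc3, 0.81 for Ptn and Mdk and 0.66 for Ptn and Ptprz1. The 22 points share libraries, depth and background RNA, so r is a description. Of 8610 genes, the 3 most like Ptn were Akap7 (r = 0.92), Gpc6 (0.89) and Ntrk3 (0.88), and those most like Mdk were Fgfr1 (0.96), Antxr1 (0.95) and Fzd2 (0.92). Among those most like Ptprz1 were Zdhhc2 (0.99) and Gpm6a (0.97).

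Other genes of the pathway were taken from 3 lists. Of 11 further reported receptors of the factors, 6 had enough UMIs in Astrocyte-like cells and 6 in OPC-like cells. The glypican gene Gpc2 was past the fold and lower in SMA in both, at 6.10 and 9.59 CPM in Astrocyte-like cells (log2 ratio -0.65) and 4.99 and 8.10 CPM in OPC-like cells (-0.70). Notch2 was past it in OPC-like cells (17.7 and 11.8 CPM, 0.59). The counts were 1 of 6 in Astrocyte-like cells (7.82% of all genes) and 2 of 6 in OPC-like cells (5.47%), and in Microglia-like cells 3 of 6 were past it (7.92%), Itgav, Itgb3 and Notch2. The medians over the list were -0.07 in Astrocyte-like and 0.07 in OPC-like cells, beside -0.07 and 0.00 over all genes tested.

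Of 11 partners and substrates of Ptprz1, 2 of 9 tested were past the fold in Astrocyte-like cells (7.82% of all genes), both lower in SMA: the matrix glycoprotein tenascin C (Tnc) at 70.1 and 117 CPM (-0.74, -0.89 to -0.59) and the adhesion molecule contactin 1 (Cntn1) at 19.9 and 31.8 CPM (-0.68, -0.96 to -0.39). In OPC-like cells 0 of 10 were past it, and in Oligodendrocyte-like cells 3 of 7 (28.1% of all genes), Nfasc, Tnr and Fyn. The median of the list was -0.25 in Astrocyte-like and -0.05 in OPC-like cells, beside -0.07 and 0.00 over all genes tested. The enzymes that build and trim heparan and chondroitin sulphate, the sugar chains through which the factors bind, had 0 of 16 genes past the fold in Astrocyte-like and 0 of 18 in OPC-like cells, with medians of -0.11 and 0.01.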

How the data were processed

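The count matrices were deposited by the authors as 10x UMI counts per gene and barcode, 1 per library; per the file headers they came from Cell Ranger 4.0.0, while the methods of the study name another version, and per the labels the submitters' processing notes give mm10 and Seurat 3.2.2. Library preparation was 10x 3' v3 and reads were not analysed here.

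Cells with 200 to 4000 genes and under 10% mitochondrial UMIs were kept, SMA barcodes also listed in Con were left out, and a cluster of 1338 Con cells with a median ribosomal share above 30% was left out. Doublets were limited by the upper gene limit alone and no doublet caller was run. For clustering, each cell was brought to a total of 10000 and the log was taken with a pseudocount of 1; 2000 variable genes, 30 principal components, 20 neighbours and Louvain clustering at resolution 1 were used (scanpy 1.11.5, igraph 0.11.9, scikit-learn 1.9.0, numpy 2.4.6, scipy 1.17.1, pandas 2.3.3, Python 3.11.15, matplotlib 3.10.9). For each cluster, the 17 classes were ranked by their markers among its 60 genes of highest fold, and ties were settled by markers raised in the cluster. A cluster took the first class when at least 3 markers of that class were raised in it, even with few or none among the 60. It stayed unnamed when another class led among its 10 leading genes or came close among the 60. The same held for low depth with no marker among the leading genes. In all, 253 SMA (3.73%) and 691 Con cells (7.75%) stayed unnamed.

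UMIs were summed per class and library from raw counts. Levels carry exact Poisson, shares exact Clopper-Pearson and log2 ratios exact conditional binomial 95% intervals. With 1 library per group there was no test; the ratio step was tested on simulated data. A gene was tested in a class, in the sense of being compared, from 100 UMIs on. The genes named are all 9 members in every class, list genes past the fold in OPC-like or Astrocyte-like cells, list genes named in other classes, chosen after their values were seen, and the 3 genes most like Ptn, Mdk and Ptprz1, of which 1 is not reported here; clusters, and members within clusters, were chosen for description after their values were seen. Members and lists were chosen with earlier results of these data known. Gene positions are from GENCODE M21, and promoters from RefSeq, where 7 of 9 members matched by symbol.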

Additional observations from a re-analysis of the deposited data

Results flagged for a closer look

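The log2 ratio of Mdk lay above 0 in OPC-like cells (0.20) and below 0 in Endothelial-like cells (-0.75), a gap of 0.94, with intervals above 0 in 1 class and below 0 in 5 when Fibroblast-like and Erythroid-like cells were set aside. The ratio of Ptprz1 was 0.65 in Mural-like and -0.37 in Endothelial-like cells, a gap of 1.02, with intervals above 0 in 4 classes and below 0 in 2. The summed astrocyte markers in Mural-like cells lay at 0.47, and their part in the ratio was not tested. The ratio of Ncl was 0.17 in Microglia-like and -0.17 in Endothelial-like cells, a gap of 0.34, with intervals above 0 in 1 class and below 0 in 3. These drew attention because classes lay on opposite sides of 0 beyond counting error. With 1 library per group the difference was not tested in any of the 3 cases.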

How the results depend on the processing

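Ratios of Ptn and Ptprz1 in Astrocyte-like and OPC-like cells moved by more than counting error under several settings. The log2 ratio of Ptn in Astrocyte-like cells was 0.17 with shared barcodes kept, 0.27 with an upper limit of 6000 genes, 0.25 at resolution 2, 0.14 with equal weight per cell, 0.28 centred on the median gene and 0.27 in cells of 5000 or more UMIs. The log2 ratio of Ptn in OPC-like cells was 0.28 with shared barcodes kept, 0.29 with equal weight per cell, 0.34 in deep cells, 0.29 without haemoglobin genes and 0.29 without the Dll1-led cluster, a setting chosen after seeing the data. The log2 ratio of Ptprz1 in Astrocyte-like cells was -0.0143 with equal weight, 0.11 centred on the median gene and 0.11 in deep cells, and the log2 ratio of Ptprz1 in OPC-like cells was 0.0450 with shared barcodes kept, 0.0526 with 6000 genes and 0.0373 without the Dll1-led cluster. Products lower in SMA by the fold numbered 103, but 39 with shared barcodes kept and 62 with 6000 genes. The log2 ratio of Ptn in Fibroblast-like cells reversed to -0.11 without the Con-only cluster, and the log2 ratio of Mdk in Oligodendrocyte-like cells to 0.0847 with shared barcodes kept. The cause was not tested. Of 76 log2 ratios of members in classes, 7 changed sign with shared barcodes kept, 8 with 6000 genes, 8 with equal weight per cell, 6 with a mitochondrial limit of 20%, 4 in deep cells, 4 without one-library clusters, 2 at resolution 0.5, 2 with the high-ribosome cluster kept, 1 at resolution 2, 1 centred on the median gene and 0 without haemoglobin genes. Lrp1 in COP-like cells did so under 7 settings. UMI counts under 100 limit Alk in every class but OPC-like cells. No paired analysis was possible because each group is 1 library.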

Other observations

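Classes with under 50 cells in a library held few UMIs of the members and entered no comparison. Macrophage-like cells (38 in SMA and 66 in Con) held Sdc4 at 511 and 586 CPM (186 and 377 UMIs) and Ncl at 365 and 390.3 CPM (133 and 251 UMIs). Neuron-like cells (45 and 26 cells) held Ncl at 367 and 322 CPM (145 and 85 UMIs) and Ptn at 208 and 133 CPM (82 and 35 UMIs), the latter near the level of 201 and 203 CPM in Erythroid-like cells. Monocyte-like cells (21 and 285 cells) held Ptn at 937 and 281 CPM (94 and 168 UMIs). Their summed OPC markers were at 907 and 169 CPM, with 8 of 8 higher in SMA, and their summed astrocyte markers at 349 and 492 CPM. The part of these markers in the Ptn level was not tested. An unnamed cluster with Aif1 and Ighm among its leading genes (139 and 292 cells) held Ptn at 1297 and 1364 CPM.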
